A study of Mus musculus with 8 samples.

Results

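The acid-base genes of the collecting duct's intercalated cells were followed in embryonic mouse kidney as a set of 8 genes, chosen by symbol: Foxi1, Atp6v1b1, Atp6v0d2, Atp6v1g3, Slc26a4, Slc4a1, Slc4a9 and Rhcg. They were 8 of the 24151 genes listed, and 7 of the 13677 genes that passed a filter of at least 1 TPM (transcripts per 1000000) in at least 2 libraries. Slc4a9 did not pass. Mothers of the outbred ICR stock, 8 weeks of age, received 5 mg/kg of the organophosphate insecticide chlorpyrifos (CPF), dissolved in dimethyl sulfoxide (DMSO), under the skin once a day over gestation days 7.5 to 11.5. Control mothers received the same volume of DMSO over the same days. Kidneys were taken at 4 stages named by embryonic day, E12.5, E14.5 and E16.5 followed by E18.5, which gave 4 CPF libraries and 4 DMSO libraries with 1 library for each agent and stage. The sources used here do not give the number of embryos or litters behind a library, and every injection was over before the first collection.

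Intercalated cells are the acid-base cells of the connecting tubule and collecting duct. Type A cells pump protons into the urine with a vacuolar H+-ATPase and return bicarbonate to the blood through the anion exchanger AE1, encoded by Slc4a1. Type B cells secrete bicarbonate through pendrin, encoded by Slc26a4, and carry the basolateral transporter encoded by Slc4a9. Foxi1 is the forkhead transcription factor that these cells require, and in mice without it the collecting duct lacks normal intercalated cells and Atp6v1b1 is not expressed there. In the collecting duct both cell types differentiate late, from a ureteric epithelium that also gives rise to the water- and sodium-transporting principal cells.

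Sequences just upstream of the annotated start were used for 5 of the 8 genes, in RefSeq windows of GRCm38.p6. The Slc26a4 window partly overlapped the annotated span of its gene. The regulator and a proton pump gene known to depend on it are shown, each as the 250 bases before the start on the gene's own strand. Foxi1 is at chr11:34208090-34208339 on the minus strand, and Atp6v1b1 is at chr6:83742767-83743016 on the plus strand. Capitals mark TGTTTA, the core letters of many forkhead sites, searched on both strands.
Foxi1: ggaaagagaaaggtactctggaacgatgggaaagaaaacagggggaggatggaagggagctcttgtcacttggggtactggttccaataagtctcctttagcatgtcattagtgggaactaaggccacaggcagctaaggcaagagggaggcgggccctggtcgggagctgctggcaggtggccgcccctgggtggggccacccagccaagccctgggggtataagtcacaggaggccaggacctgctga
Atp6v1b1: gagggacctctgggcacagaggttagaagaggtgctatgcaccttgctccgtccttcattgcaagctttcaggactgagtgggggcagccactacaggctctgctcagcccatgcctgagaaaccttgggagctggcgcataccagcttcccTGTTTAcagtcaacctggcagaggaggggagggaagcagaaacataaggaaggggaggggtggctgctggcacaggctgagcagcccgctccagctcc
The letters lie 98 to 93 bases before the Atp6v1b1 start, and they were in 1 of the 5 windows of the set. They were in 12.03% of the 32851 windows in the table, so a match is common. The Foxi1 window was 58.8% G and C with 4 CpG, and the Atp6v1b1 window was 59.6% with 3 CpG.

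The number of genes at 1 TPM or more in a library was 12496 to 12870 in CPF and 11714 to 12458 in DMSO. TPM keeps no read totals, but low values fell on steps that put a single read over 1 kb at 0.0815 to 0.105 TPM in the CPF libraries, and at 0.0610 to 0.0991 TPM in those of DMSO, with 68.9 to 73.0% of low values whole within 0.03 reads. Read numbers below are estimates from those steps, and intervals cover counting error only. The noncoding RNAs Rpph1 and Rmrp took 19.3 to 21.8% of all TPM in CPF and 19.6 to 41.8% in DMSO, the most at E18.5, so folds are also given on a coding scale, with each library rescaled over its protein-coding transcripts. At E18.5 the median of all tested genes was 1.45-fold in CPF over DMSO as deposited and 1.10-fold on the coding scale. Genes with several RefSeq transcripts read near 0 in these files, with a median of their mean levels of 0.142 TPM against 3.64 TPM for genes with 1 transcript. The other members have 1 transcript each, and Slc4a9 has 5. No other annotated gene overlaps any of the 8.

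Foxi1, on chromosome 11, was close to undetected at the first pair of stages and then appeared. In CPF kidneys it had 0.0857 TPM at E12.5, 0.200 at E14.5, 4.10 at E16.5 and 21.9 at E18.5. In DMSO kidneys it had 0.0342, 0.0836, 3.86 and 3.15 TPM at the same stages. About 2, 5, 118 and 490 reads lay behind the CPF values, and 1, 2, 134 and 122 behind the DMSO values. At E16.5 the fold was 1.06 (95% counting interval 0.821 to 1.37), and at E18.5 the agents stood far apart. Foxi1 at E18.5 was 6.96-fold higher in CPF (5.70 to 8.56), and 5.02-fold on the coding scale. It was 5.34-fold higher at E18.5 than at E16.5 in CPF, and 0.815-fold in DMSO, or 5.28-fold and 0.966-fold on the coding scale. Over that step in DMSO the median gene was 0.794-fold as deposited and 0.914-fold on the coding scale. Of the 6 genes other than Slc4a1 and Slc4a9, Foxi1 was the one whose DMSO level was lower at E18.5 than at E16.5, slightly so on the coding scale.

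**Figure D1:**
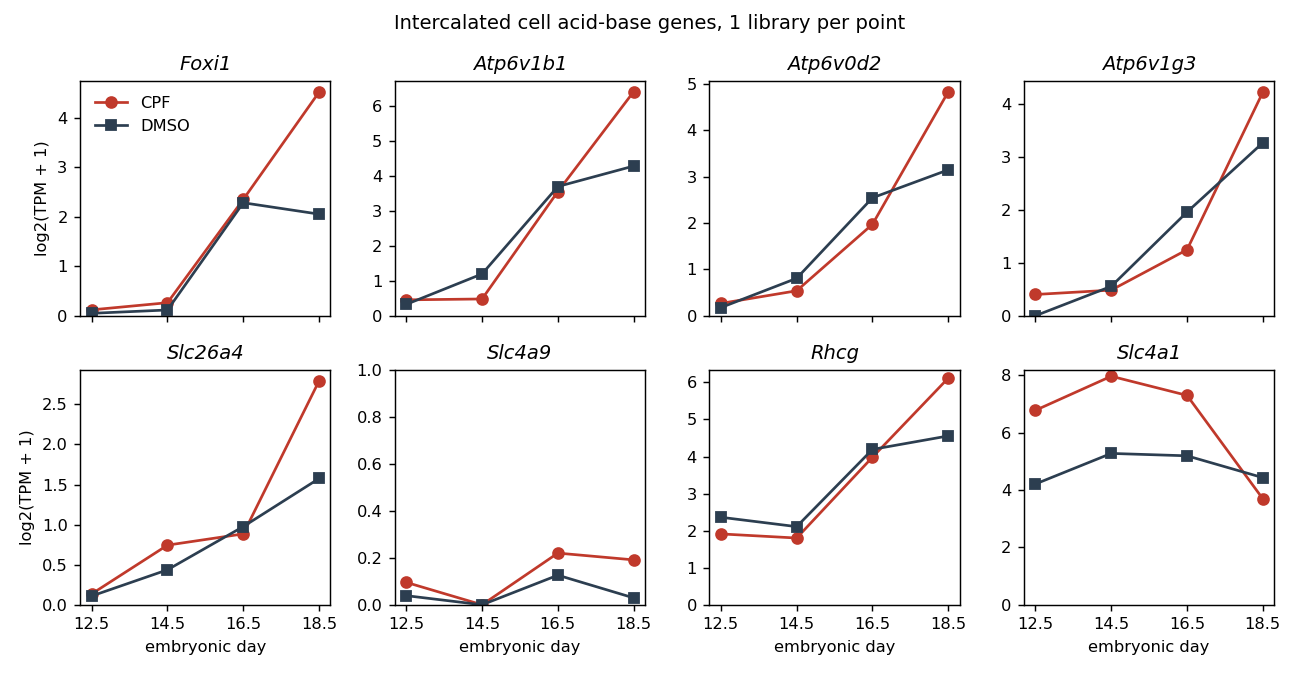
Level of each of the 8 genes, as log2(TPM + 1), against embryonic day, with 1 library per point and separate vertical scales. CPF (circles) and DMSO (squares) lie within 1 unit of each other at E16.5 for every gene but Slc4a1. At E18.5 Foxi1 is at 21.9 TPM in CPF and 3.15 TPM in DMSO, while Slc4a1 is lower in CPF.

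Another 3 genes of the set encode proton pump subunits whose expression is restricted among tissues, and Atp6v1b1 was the most abundant of them. Atp6v1b1 encodes the B1 subunit of the pump's catalytic head, and lies on chromosome 6. Over the 4 stages its level in CPF kidneys was 0.369, 0.393, 10.7 and 83.2 TPM. In DMSO kidneys it was 0.252, 1.29, 11.9 and 18.3 TPM. The E18.5 CPF library stood above every other library, and it was the highest of all members there. Atp6v1b1 was 0.306-fold in CPF over DMSO at E14.5 (0.120 to 0.695, on 8 and 26 reads) and 4.54-fold at E18.5 (4.13 to 5.00), or 3.28-fold on the coding scale.

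Atp6v0d2, on chromosome 4, encodes a d subunit of the membrane sector and is also well known from osteoclasts. It had 0.202, 0.452, 2.92 and 27.4 TPM in CPF kidneys over the 4 stages. It had 0.129, 0.749, 4.83 and 7.85 TPM in DMSO kidneys. CPF was lower at E14.5 and E16.5 and higher at E18.5. The E14.5 fold was 0.603, on 12 and 19 reads, with an interval (0.267 to 1.31) that spans 1. The E16.5 fold was 0.605 (0.465 to 0.783) and the E18.5 fold was 3.49 (3.05 to 4.00), or 2.52 on the coding scale. Osteoclast and macrophage genes with 1 transcript, 11 of 16 listed, summed to 137 to 261 TPM in CPF and 64.4 to 137 TPM in DMSO, with 179 and 118 TPM at E18.5. Among the osteoclast markers with 1 transcript, Ctsk, the gene of the bone-degrading protease cathepsin K, had 4.58 TPM in CPF and 4.39 TPM in DMSO at E18.5. Mmp9 had 1.92 TPM in CPF and 0.345 TPM in DMSO at E18.5, and Ocstamp was at 0 TPM in CPF and 0.0311 TPM in DMSO. Their part in the Atp6v0d2 values was not tested.

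Atp6v1g3, on chromosome 1, encodes a G subunit of the pump's stalk. It had 0.321, 0.399, 1.38 and 17.7 TPM in CPF kidneys, and it was listed at 0 and then had 0.470, 2.89 and 8.66 TPM in DMSO kidneys. The agents' order turned between E16.5 and E18.5 here too. The E16.5 fold was 0.475 (0.305 to 0.724), on 32 and 81 reads. The E18.5 fold was 2.05 (1.74 to 2.42), and at 1.48 on the coding scale it was the smallest excess of the set.

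Each of these subunits has a widely expressed counterpart, and the restricted form took a growing part of each pair. TPM is per length, so the levels can be added. Atp6v1b1 made up 28.4% of Atp6v1b1 plus Atp6v1b2 in CPF and 21.2% in DMSO at E18.5, against 0.359% in CPF and 0.210% in DMSO at E12.5. Atp6v0d2 made up 15.3% of its pair with Atp6v0d1 in CPF and 11.3% in DMSO at E18.5. Atp6v1g3 made up 4.68% of its pair with Atp6v1g1 in CPF and 3.90% in DMSO. These shares do not depend on the scaling of a library. At E16.5 all 3 shares were lower in CPF than in DMSO, at 8.47 and 11.9% for Atp6v1b1, 2.93 and 6.00% for Atp6v0d2, and 0.613 and 1.38% for Atp6v1g3. The widely expressed subunits were themselves higher in CPF at E18.5. On the coding scale the folds were 2.22 for Atp6v1b2, 1.78 for Atp6v0d1 and 1.22 for Atp6v1g1. The median of all tested genes on that scale was 1.10-fold. Atp6v1b2 had 209.6 TPM in CPF and 68.2 TPM in DMSO, Atp6v0d1 had 151.6 TPM in CPF and 61.4 TPM in DMSO, and Atp6v1g1 had 361 TPM in CPF and 214 TPM in DMSO.

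**Figure D2:**
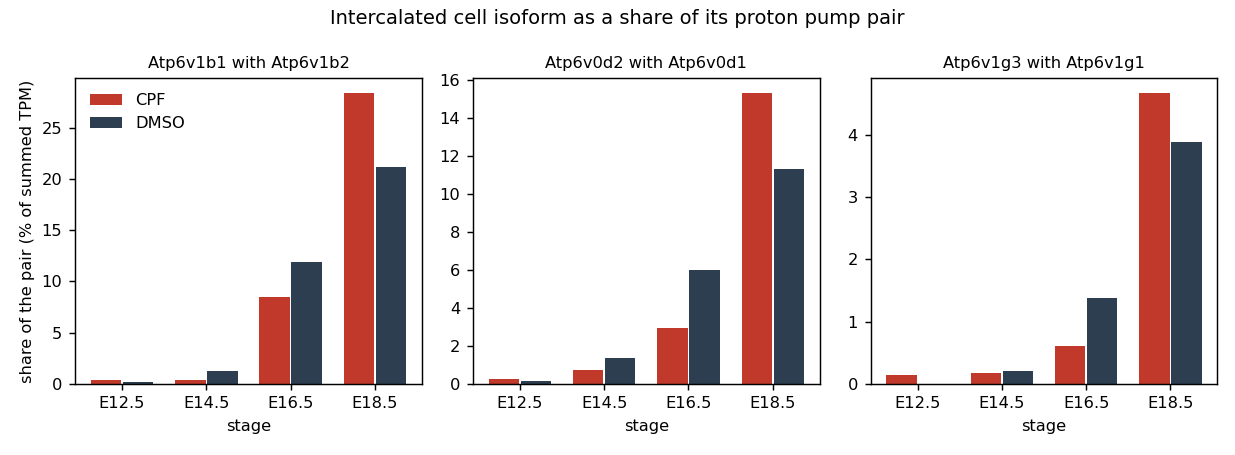
Share of each proton pump pair, in percent of summed TPM, taken by the intercalated cell form at each stage, with CPF bars left of DMSO bars and 1 library per bar. The Atp6v1b1 share reaches 28.4% in CPF and 21.2% in DMSO at E18.5, while at E16.5 the DMSO bar is the taller in all 3 panels.

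Rhcg, on chromosome 7, encodes an ammonia channel of collecting duct cells, intercalated and principal. It was the one member apart from Slc4a1 that was above 1 TPM in all 8 libraries. CPF kidneys had 2.76, 2.49, 14.8 and 68.4 TPM over the 4 stages, and DMSO kidneys had 4.14, 3.31, 17.3 and 22.5 TPM. CPF was the lower at the first 3 stages and the higher at E18.5. The fold was 0.668 (0.475 to 0.929) at E12.5 and 0.750 at E14.5, with an interval (0.517 to 1.08) that spans 1. It was 0.856 (0.749 to 0.979) at E16.5, and 3.04 (2.78 to 3.32) at E18.5, or 2.19 on the coding scale.

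Slc26a4, on chromosome 12, encodes pendrin, the chloride-bicarbonate exchanger at the luminal side of type B cells. It was at 0.0988, 0.675, 0.846 and 5.93 TPM in CPF kidneys and 0.0788, 0.353, 0.967 and 1.98 TPM in DMSO kidneys. It was above 1 TPM in the E18.5 libraries only. The E18.5 fold was 3.00 (2.33 to 3.87), on 173 and 100 reads, and 2.16 on the coding scale. At E14.5 it was 1.91-fold, on 22 and 11 reads, with a counting interval (0.888 to 4.36) that spans 1.

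Slc4a9, the other type B gene of the set, cannot be followed in these files. It was listed at 0.0685, 0, 0.165 and 0.142 TPM in CPF, against 0.0273, 0, 0.0914 and 0.0206 TPM in DMSO, all from 1 of its 5 transcripts. The largest of these values corresponds to about 6 reads. The values were not read as low expression, because other genes with several transcripts also read near 0.

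Slc4a1, on chromosome 11, is the exception of the set. AE1 is the band 3 protein of the red cell membrane as well as the bicarbonate exit of type A cells, and the files hold 1 transcript for the gene, so the red cell and kidney forms cannot be told apart. CPF kidneys had 109, 249, 156 and 11.9 TPM over the 4 stages. DMSO kidneys had 17.5, 37.7, 35.6 and 20.6 TPM. CPF was far higher at the first 3 stages and lower at E18.5. The folds were 6.21 (5.80 to 6.66) at E12.5, 6.60 (6.27 to 6.94) at E14.5, 4.40 (4.20 to 4.60) at E16.5 and 0.580 (0.524 to 0.642) at E18.5, where the coding scale gave 0.419.

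Red cell genes were among the nearest profiles to Slc4a1 over the 8 libraries. Likeness was measured as the root mean square difference of log2(TPM + 1) profiles centred on their means, over all genes that passed the filter. Among the nearest were Trim10 (0.202), Epb42 (0.350), Ina (0.402) and Redrum (0.443), of which Epb42 encodes a protein of the red cell membrane skeleton and Ina a neuronal intermediate filament protein. From every other member Slc4a1 was 1.98 or more away. Its ratio to Epb42 was 3.09 to 6.75 in CPF and 4.77 to 6.18 in DMSO, while Slc4a1 itself spanned 11.9 to 249 TPM in CPF and 17.5 to 37.7 TPM in DMSO. Of the 25 red cell genes listed, the 21 with 1 transcript summed to 37190, 18536, 1460 and 330 TPM in CPF over the 4 stages, and to 8245, 4359, 826 and 247 TPM in DMSO. Single genes made up much of these sums: Hbb-y, an embryonic globin gene, had 33813 TPM in CPF and 6940 TPM in DMSO at E12.5, and Tfrc, the transferrin receptor gene that other cells also express, had 222 TPM in CPF and 102 TPM in DMSO at E18.5. Of these 21 genes, 2 to 5 were at 0 in a CPF library and 4 in every DMSO library. Counted gene by gene, 16, 17 and 16 of the 17 tested were higher in CPF at the first 3 stages, with a median log2 difference of 1.99, 2.20 and 2.09. At E18.5 6 of the 17 were higher in CPF, with a median of -0.11, or -0.49 on the coding scale. The part of red cells in the Slc4a1 difference was not tested.

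**Figure D3:**
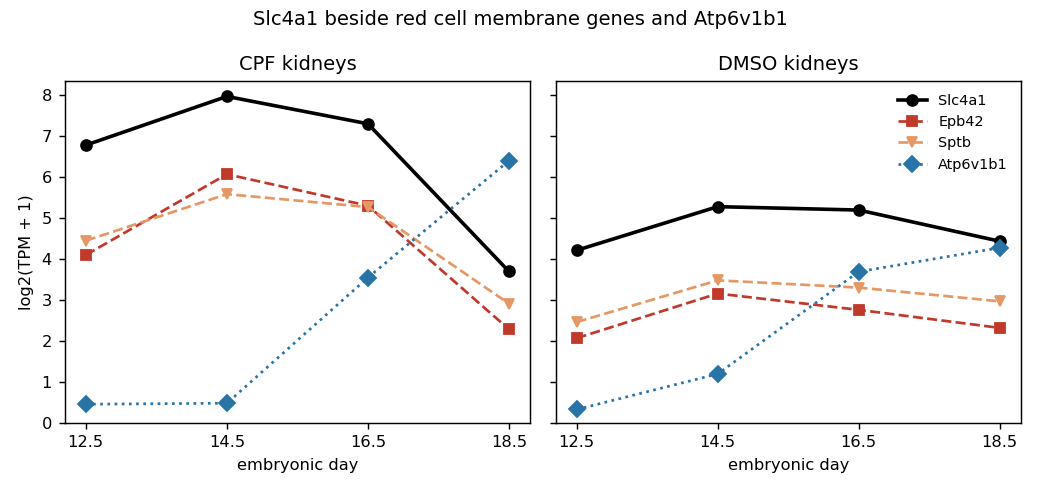
Level as log2(TPM + 1) against embryonic day in CPF kidneys (left) and DMSO kidneys (right) for Slc4a1, the red cell membrane genes Epb42 and Sptb, and Atp6v1b1, with 1 library per point. Slc4a1 lies above both red cell genes at every stage, with a ratio to Sptb in CPF of 5.32 at E14.5 and 1.83 at E18.5, and it lies below Atp6v1b1 at E18.5 in CPF.

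The order of the members' levels changed with stage. Slc4a1 led and Rhcg followed at E12.5, E14.5 and E16.5 under both agents. At E18.5 the CPF order was Atp6v1b1, Rhcg, Atp6v0d2, Foxi1, Atp6v1g3, Slc4a1, Slc26a4 and Slc4a9. The DMSO order was Rhcg, Slc4a1, Atp6v1b1, Atp6v1g3, Atp6v0d2, Foxi1, Slc26a4 and Slc4a9. With 1 library each, no spread says which neighbours differ.

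Across stages, 6 members rose with embryonic day. The test was limma on log2(TPM + 1) with a slope over embryonic day and a term for the agent, adjusted by Benjamini-Hochberg over all 13677 genes, and a gene is called where the adjusted p is under 0.05. Over both agents the slope was 0.88 ± 0.12 (SE) log2 units per day for Atp6v1b1 with adjusted p 0.00273, the steepest of the set. It was 0.64 ± 0.09 for Atp6v0d2 (adjusted p 0.00290), 0.59 ± 0.09 for Atp6v1g3 (0.00435), 0.59 ± 0.10 for Rhcg (0.00857), 0.59 ± 0.11 for Foxi1 (0.00863) and 0.33 ± 0.07 for Slc26a4 (0.0152). Slc4a1 had a slope of -0.23 ± 0.18 with adjusted p 0.436. Of all tested genes 5.79% were called as rising. Foxi1, Atp6v1b1, Atp6v0d2, Atp6v1g3 and Slc26a4, 5 of the 7, reached 1 TPM in fewer than 2 of the E12.5 and E14.5 libraries and passed the filter only with the later ones, so the count of 6 is a description and not support. In bulk tissue, more intercalated cells and more RNA per cell cannot be told apart. Without the E18.5 pair 0 of the 7 were called, in a fit with 3 residual degrees of freedom in place of 5 that called 116 of all genes in place of 1711. The slopes of the 6 genes stayed above 0 there, at 0.81 for Atp6v1b1 (adjusted p 0.0711), 0.56 for Foxi1 (0.124), 0.51 for Atp6v0d2 (0.0822), 0.49 for Rhcg (0.183), 0.35 for Atp6v1g3 (0.175) and 0.20 for Slc26a4 (0.294). Without the E18.5 CPF library alone 5 members were called, and without the E18.5 DMSO library alone 6, a pair of settings chosen after seeing the data.

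The steps between stages differed in place. Foxi1 was 20.5-fold higher at E16.5 than at E14.5 in CPF and 46.2-fold in DMSO, so most of its course was run by E16.5 in DMSO. Atp6v1b1 was 27.2-fold higher over the same step in CPF and 9.25-fold in DMSO. Between E16.5 and E18.5 the CPF kidneys took the larger step for all 6 genes. In CPF that step was 7.80-fold for Atp6v1b1, 9.39-fold for Atp6v0d2, 12.9-fold for Atp6v1g3, 7.01-fold for Slc26a4 and 4.62-fold for Rhcg. In DMSO it was 1.54, 1.63, 2.99, 2.05 and 1.30-fold for the same genes. On the coding scale the steps were 7.71, 9.28, 12.75, 6.93 and 4.57-fold in CPF, in the same order. The DMSO steps on that scale were 1.83, 1.93, 3.55, 2.43 and 1.545-fold. Over that step the median gene was 1.04-fold in CPF and 0.794-fold in DMSO, or 1.03 and 0.914-fold on the coding scale. As deposited, the E16.5 level of the 6 genes was 7.75 to 21.7% of their E18.5 level in CPF. The range in DMSO was 33.4 to 123%, also as deposited.

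At E18.5, 6 of the 7 members with a mean of at least 1 TPM in the pair were over 2-fold higher in CPF, where 28.9% of all such genes were. On the coding scale 5 of 7 were, where 13.7% of all genes were, and Slc4a1 was then over 2-fold lower. At the earlier stages Slc4a1 alone was over 2-fold higher, 1 of 2 eligible members at E12.5 (background 8.56%), 1 of 2 at E14.5 (9.21%) and 1 of 6 at E16.5 (10.7%). Over 2-fold lower at E16.5 was Atp6v1g3 (background 4.76%). A difference within a stage compares 1 library with 1 library and has no replicate check.

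**Figure D4:**
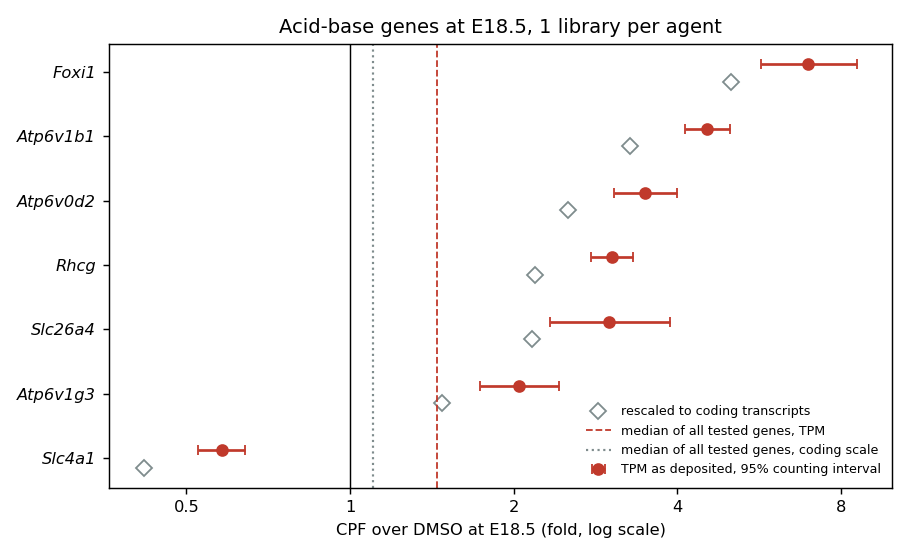
Fold of CPF over DMSO at E18.5 on a log axis for the 7 genes that passed the filter, as deposited (filled, with 95% counting interval) and on the coding scale (open), with the medians of all tested genes as vertical lines. Foxi1 is highest at 6.96-fold, and Slc4a1 lies below 1 at 0.580-fold.

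Over the 4 stages, no member was called between the agents. The limma fit with stage as a factor called 0 of the 7 members, where 0.161% of all genes were called. Of the 7 members 1 had an unadjusted p under 0.05, as did 1306 of the 13677 tested genes. That member was Slc4a1, at 1.66 ± 0.61 (SE) log2 units in CPF minus DMSO (unadjusted p 0.0367, adjusted p 0.471). Without the E14.5 pair it was called at 1.31 (adjusted p 0.0312), and without the E18.5 pair at 2.45 (0.00744). Foxi1 was at 0.69 ± 0.41 (adjusted p 0.674), and the rest lay between 0.14 and 0.37. A difference of slopes between the agents was called for 0 of the 7 members and for 0% of all genes in limma. None of the 7 had an unadjusted p under 0.05, while 3615 genes did. The estimates in CPF minus DMSO were 0.36 ± 0.19 for Foxi1, 0.33 ± 0.22 for Atp6v1b1, 0.31 ± 0.19 for Rhcg and -0.53 ± 0.32 for Slc4a1, in log2 units per day. The 2 fits have 3 and 4 residual degrees of freedom, so a difference present at 1 stage adds to the error that it is tested against.

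Among other genes of intercalated cells, 9 of the 17 tested rose with embryonic day and 0 fell, of 24 listed, with a median slope of 0.29 log2 units per day against -0.03 over all genes. Here and in the lists that follow, 5.79% of all tested genes rose, and the counts describe the lists and are no test of them. Of the 17, 5 passed the filter only with libraries of the later stages, among them Atp6v0a4, Hepacam2, Oxgr1 and Atp12a. Of these, Hepacam2, Oxgr1 and Atp12a were below 1 TPM in every E12.5 and E14.5 library. The ammonia transporter gene Rhbg rose by 0.61 ± 0.07 (SE) per day (limma, adjusted p 0.000824), Aldh1l1 by 0.56 ± 0.07 (0.00163), the pump subunit gene Atp6v0a4 by 0.93 ± 0.11 (0.00221) and Hepacam2 by 0.37 ± 0.07 (0.0104). Atp6v0a4 had 0.710, 0.806, 11.8 and 120.1 TPM in CPF over the 4 stages, against 0.197, 1.93, 16.2 and 24.5 TPM in DMSO. It was the nearest profile to Atp6v1b1 of all genes (0.174). At E18.5 all 17 were higher in CPF, with a median log2 difference of 1.67, or 1.28 on the coding scale, where all genes had 0.53 and 0.14. Car2, the cytosolic carbonic anhydrase, was the one of these genes called between agents over all stages, at 2.21 ± 0.23 (adjusted p 0.00391). It had 89.7, 435, 237 and 217 TPM in CPF, against 19.4, 57.7, 51.7 and 70.8 TPM in DMSO. It was called in 6 of 12 alternatives, with estimates of 1.88 to 2.41 over the 12, and was not called on the coding scale (adjusted p 0.119), with quantile normalization (0.210) or with no filter (0.193). Car2 is also abundant in red cells, whose part in its difference was not tested. At E18.5 Car2 was 3.07-fold higher in CPF, or 2.22-fold on the coding scale, where 6 of the 17 red cell genes were higher. Of the 7 listed genes that were not tested, 5 have several transcripts, among them Kit and Atp6v1c2.

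Of the 13 genes listed for the choice between intercalated and principal cells, 11 were tested, and 2 rose and 0 fell. Tfcp2l1, a transcription factor gene of collecting duct cells, rose by 0.40 ± 0.09 (SE) per day (adjusted p 0.0239). It had 22.3, 30.5, 72.5 and 274 TPM in CPF, against 29.8, 30.2, 66.9 and 57.7 TPM in DMSO, so, like Foxi1, it was level between the agents at E16.5 and 4.76-fold higher in CPF at E18.5. Ehf rose by 0.35 ± 0.09 (adjusted p 0.0362). The list's median at E18.5 was 1.06 on the log2 scale, and 0.61 on the coding scale.

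Among 19 other subunits of the proton pump 16 were tested, and 5 rose and 0 fell. Atp6ap2 rose by 0.19 ± 0.04 (SE) per day (adjusted p 0.0111), Atp6v0b by 0.20 ± 0.05 (0.0286), Atp6v0e by 0.20 ± 0.05 (0.0353) and Atp6v0e2 by 0.20 ± 0.05 (0.0377). The list's median at E18.5 was 1.00, and 0.54 on the coding scale. Of 17 further SLC4, SLC26 and Rh family genes 10 were tested. The sulfate transporter gene Slc26a1 rose by 0.43 ± 0.10 (adjusted p 0.0203), and the bicarbonate transporter gene Slc4a7 had a slope of -0.14 ± 0.04 (0.0437).

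Principal cell genes mark the other fate of the same epithelium. Of 11 listed 6 were tested, and 5 rose and 0 fell. Aqp2 passed the filter only with the later stages, at 0.143 TPM or less in every E12.5 and E14.5 library. The water channel genes Aqp3, Aqp4 and Aqp2 rose by 0.74 ± 0.07, 0.65 ± 0.07 and 1.06 ± 0.17 (SE) per day, and the sodium channel gene Scnn1g by 0.49 ± 0.07, with adjusted p 0.000489, 0.00100, 0.00672 and 0.00257 in that order (limma). Summed over the 6 genes, CPF libraries had 26.4, 24.0, 74.8 and 376 TPM over the 4 stages, and DMSO libraries had 47.8, 29.8, 80.0 and 116 TPM. Most of the E12.5 sums came from Hsd11b2, the tested gene of the list that was not called (slope -0.007, adjusted p 0.971). Hsd11b2 had 16.8 TPM in CPF and 40.4 TPM in DMSO at E12.5, and 8.00 and 16.2 TPM at E14.5. The list's median at E18.5 was 1.68, beside 1.56 for the tested acid-base genes and 1.24 and 1.11 on the coding scale. Scnn1g was the nearest of all genes to the mean profile of the tested members (0.139). That mean includes Slc4a1, whose own profile was far from those of the other members. Of the wider collecting duct and ureteric list, 15 of 17 genes were tested, with 5 rising and 0 falling, and the median at E18.5 was 0.84, or 0.37 on the coding scale. Its steepest called genes were the uroplakin genes Upk3a (1.07 ± 0.09, adjusted p 0.000489) and Upk1b (0.70 ± 0.08, 0.00115). Upk3a passed the filter only with libraries of the later stages. In CPF over DMSO at E18.5 Upk3a and Upk1b were 0.939-fold and 1.01-fold, or 0.677-fold and 0.731-fold on the coding scale. The median of all tested genes was 1.45-fold as deposited and 1.10-fold on the coding scale. Krt8 rose by 0.28 ± 0.06 (0.0202) and Krt19 by 0.51 ± 0.11 (0.0253).

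**Figure D5:**
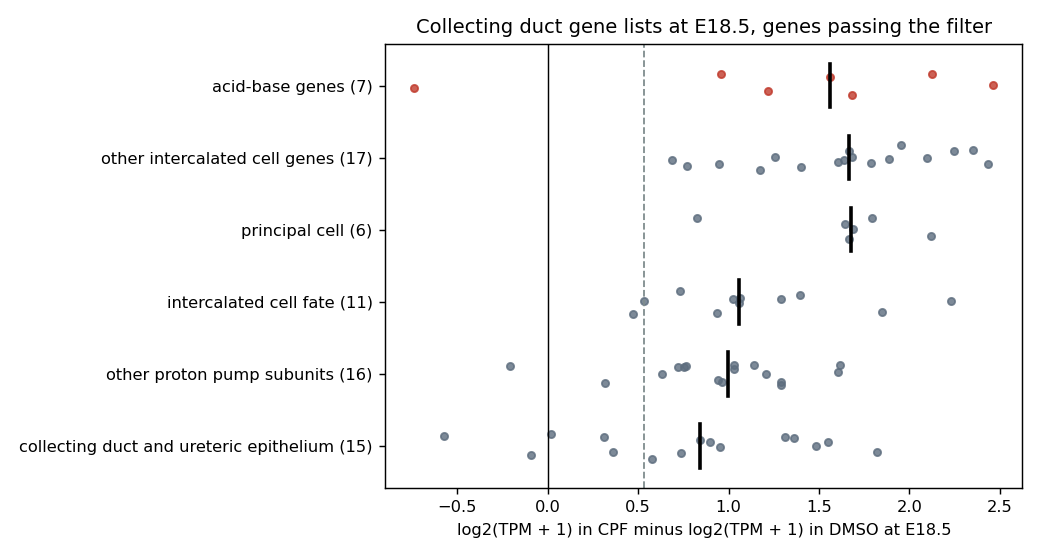
Difference of log2(TPM + 1), CPF minus DMSO, at E18.5 for each tested gene of 6 lists (points, with the number of genes in brackets) and the list medians (bars), with 1 library per agent. The acid-base genes have a median of 1.56, the other intercalated cell genes 1.67 and the principal cell genes 1.68, and the dashed line marks the median of all tested genes, 0.53.

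Nearest profiles to the other members were searched by the same measure, and no shared role is read from them. They were Pdzd3, Eps8l2, Tmem72, Ntn4 and Slc9a2 for Foxi1 (0.204 to 0.257). For Rhcg they were Tmem72, Lgals12, Tmprss2, Pdzd3 and Plau (0.300 to 0.348). For Atp6v1b1 the next after Atp6v0a4 were Slc5a1, Slc22a12, Bsnd and Sucnr1 (0.289 to 0.398), of which Slc5a1 and Slc22a12 encode proximal tubule transporters and Bsnd a chloride channel subunit of loop and intercalated cells. For Atp6v0d2 they were Slc13a1, Slc51b, Ugt1a10, Tmem229a and Hsd3b4 (0.201 to 0.282), and for Atp6v1g3 Cndp1, Slc10a2, Col4a3, Slc51b and Cyp2j11 (0.170 to 0.313). For Slc26a4 they were Mfsd4b5, Chpt1, Tcf24, Fam195a and Irgm1 (0.118 to 0.189). Among the members, Atp6v0d2 and Atp6v1g3 were closest to each other (0.314), followed by Foxi1 and Rhcg (0.326) and Atp6v0d2 and Rhcg (0.327).

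Genes of other tissues also moved between the libraries. Liver genes with 1 transcript, 10 of 13 listed, summed to 217, 5161, 6210 and 1135 TPM in CPF, against 22.9, 1024, 72.4 and 45.7 TPM in the 4 DMSO libraries in stage order, with none at 0. Adrenal cortex genes, 8 of 9 listed, summed to 87.4 to 766 TPM in CPF and 54.4 to 118 TPM in DMSO, with 2 at 0 in CPF at E18.5. Called between the agents were Ambp of the liver list (3.18 ± 0.40 SE, adjusted p 0.0222) and Akr1b7 of the adrenal list (2.01 ± 0.29, 0.0222). Ambp was called in 5 of 12 alternatives and Akr1b7 in 6 of 12, and on the coding scale they were not called (adjusted p 0.119 for Ambp and 0.138 for Akr1b7). Of the 10 macrophage and osteoclast genes tested, Lyz2 rose with embryonic day (0.32 ± 0.07, adjusted p 0.0166). Of the 17 red cell genes tested the embryonic globin genes Hbb-bh1, Hbb-y and Hba-x fell, with slopes of -1.36 ± 0.11, -1.80 ± 0.24 and -1.39 ± 0.20 per day and adjusted p 0.000489, 0.00561 and 0.00757 (limma). The part of these tissues in the members' differences was not tested.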

How the data were processed

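RNA was sequenced from 8 embryonic kidney libraries, each from 2 µg of RNA per the labels' protocols. Trimmomatic, STAR and mm10 are named, without versions or roles, per the submitters' processing notes; the sources used here do not say how reads were assigned. Each deposited table of the authors holds TPM for 32862 RefSeq transcripts (28523 NM and 4339 NR), scaled to one total in every library. The depth per library is not given; reads were estimated from the steps of low TPM values with transcript lengths from GENCODE M21. Of 20 member values of 1 to 10 estimated reads, 17 were within 0.1 of a whole number (largest deviation 0.302, for Atp6v1b1, so its read numbers are the least sure). Fold intervals are exact conditional binomial (Clopper-Pearson, 95%).

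Transcripts were summed per symbol into 24151 genes, after 27 symbols listed as dates or numbers were restored from their RefSeq identifiers. Genes with at least 1 TPM in at least 2 libraries (13677) were fitted as log2(TPM + 1) with limma 3.58.1 in R 4.3.3 (mean-variance trend, robust moderation), a scale on which the changes of low genes are understated. A stage factor gave CPF minus DMSO (3 residual degrees of freedom), embryonic day with an agent term gave slopes (5), and their product gave the difference of slopes (4). The Benjamini-Hochberg adjustment ran over every tested gene. The spread behind the p-values is the variation between stages, not between animals, and the labels do not say that libraries came from separate litters. Steps were tested on simulated data. Within a stage, a gene counted as over 2-fold where the pair's mean was at least 1 TPM.

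The members and the other gene lists were chosen with earlier results of these data known. All members are described; from each list the called genes, up to 4 by p, are named, and the 5 nearest profiles for members with a log2 range of at least 2, without unnamed gene models; 1 gene that this rule names is not reported here. Alternatives were quantile normalization, coding scaling, a pseudocount of 0.1, other filters, other covariates, 1 agent alone and leaving out each stage pair. Coordinates and promoter windows are RefSeq's on GRCm38.p6, the assembly that mm10 names. Protein sequences were not used here.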

Additional observations from a re-analysis of the deposited data

Results flagged for a closer look

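For 5 members the fold of CPF over DMSO pointed one way at 1 stage and the opposite way at another, with 95% counting intervals clear of 1 at both. Slc26a4 is not counted, since its fold of 0.875 at E16.5 had an interval of 0.537 to 1.41. Each is 1 library against 1 library, and the difference between stages was not tested within a pair. Atp6v1b1 was 4.54-fold at E18.5 and 0.306-fold at E14.5. Atp6v0d2 was 3.49-fold at E18.5 and 0.605-fold at E16.5. Atp6v1g3 was 2.05-fold at E18.5 and 0.475-fold at E16.5. Rhcg was 3.04-fold at E18.5 and 0.668-fold at E12.5. Slc4a1 was 0.580-fold at E18.5 and 6.60-fold at E14.5. The difference of slopes over all stages, which bears on the same contrast, was not called for any of the 5 in limma (adjusted p 0.328 to 0.891).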

How the results depend on the processing

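The rise of 6 members with embryonic day was called for 4 of the 5 members tested with a filter of 5 TPM, 6 of 8 with no filter, 4 of 7 in CPF libraries only, 5 of 7 in DMSO libraries only, 6 of 7 under the alternatives that changed the normalization, the pseudocount or the agent term, and for 0 to 6 when each stage pair was left out, with 0 without the E18.5 pair, which leaves fewer stages. A further 2 settings were chosen after seeing the data: without the E18.5 DMSO library 6 were called, and without the E18.5 CPF library 5. Between the agents over all stages 0 to 1 members were called when each stage pair was left out, the 1 being Slc4a1 without the E14.5 or the E18.5 pair, and 0 under every other alternative. Of all genes, 22 were called between the agents in the design as given, 83 with a pseudocount of 0.1, 98 with a filter of 5 TPM, 1 on the coding scale, 34 without the E14.5 and E16.5 pairs, 0 with quantile normalization, no filter, a linear day or no stage term, and 25 to 221 when a stage pair was left out. With embryonic day, 792 genes rose and 919 fell, and 1306 rose and 640 fell on the coding scale; 961 were called with no filter, 559 in CPF libraries only, 886 without the E18.5 CPF library, 1086 without the E18.5 DMSO library, and 116 to 1053 when a stage pair was left out.

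No called member reversed. Uncalled estimates that changed sign, in log2 units, were these. For CPF minus DMSO, leaving out each stage pair gave -0.24 to 0.70 for Atp6v1b1, -0.25 to 0.50 for Atp6v0d2, -0.13 to 0.43 for Atp6v1g3 and -0.32 to 0.35 for Rhcg, the lowest without the E18.5 pair. Quantile normalization gave -0.085 for Atp6v0d2, -0.10 for Atp6v1g3 and -0.13 for Rhcg, and the coding scale gave -0.0018 for Atp6v1g3 and -0.035 for Rhcg. The slope of Slc4a1 was -0.64 to 0.19 when each stage pair was left out, 0.029 in DMSO libraries only and 0.058 without the E18.5 CPF library. For the difference of slopes, leaving out each stage pair gave -0.00053 to 0.58 for Foxi1, -0.068 to 0.71 for Atp6v1b1, -0.17 to 0.49 for Atp6v0d2, -0.28 to 0.26 for Atp6v1g3 and -0.029 to 0.23 for Slc26a4. Without the E18.5 CPF library it was -0.11 for Atp6v0d2, -0.35 for Atp6v1g3, -0.060 for Slc26a4 and 0.10 for Slc4a1. For Atp6v1g3 it was also -0.052 with quantile normalization, -0.040 on the coding scale and -0.20 with a pseudocount of 0.1. The cause was not tested. The agents were paired by stage through the stage factor, as given above with no stage term as the alternative. Each agent and stage has 1 library, so replicate numbers give no further pairing.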
